A study of Homo sapiens with 12 samples.

Results

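The Iroquois genes encode homeodomain transcription factors and lie in the human genome as 2 clusters of 3 genes, IRX4, IRX2 and IRX1 on chromosome 5 and IRX3, IRX5 and IRX6 on chromosome 16. All 6 genes were taken by name, out of 19962 protein-coding genes on chromosomes 1 to 22 and X, and every H3K27me3 peak was collected from 100 kb left of the leftmost to 100 kb right of the rightmost gene of each cluster. These windows were chr5:1777413-3701403 (1.92 Mb) and chr16:54183304-55430756 (1.25 Mb) in hg38. Chromatin came from SH-SY5Y, a human neuroblastoma cell line, either expressing Tau (WT) or knocked out for the Tau gene MAPT in the lines 231K and 232P. Each of the 3 genotypes was assayed in 2 replicates, A and B, described by the study as biological duplicates, without any other treatment, so that each knock-out genotype rests on a single line. The peak names inside both lists labelled 232P begin with 231P, the name of another Tau-KO line of the study, so that 232P here means the lists with that label and which of the 2 lines they hold cannot be told apart. Out of 285826, 222191, 271413, 212347, 147118 and 199677 peaks in WT A, WT B, 231K A, 231K B, 232P A and 232P B, the 2 windows held 920, 693, 1014, 675, 967 and 753.

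H3K27me3 is the repressive histone mark that Polycomb repressive complex 2 (PRC2) deposits, and developmental transcription factor genes are its best known targets. In cells that do not use such a gene, the mark often spreads from the CpG-rich start over the gene and its surroundings, and in cells that use it the mark is absent. Iroquois proteins belong to the TALE class of homeodomain factors and pattern the neural tube, heart, limb and other organs in the embryo. In these windows IRX4 is known as a factor of the ventricular heart muscle, while IRX3 and IRX5 act together in the heart and in the control of body fat.

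The peak lists carry no read counts, but the summit height and background of each peak could be worked back from its fold enrichment and p-value, and with the smallest peak width they gave a relative depth. WT A was the deepest list (100%), followed by 231K A (94.8%), 231K B (68.7%), 232P A (68.1%), WT B (66.6%) and 232P B (56.9%). The smallest peak width, a measure of the fragment length used in peak calling, was 179, 179 and 175 bp in the A lists and 244, 240 and 262 bp in the B lists, in the order WT, 231K and 232P. Values of the A and B lists are therefore given separately throughout.

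The sequences before the outermost 5′ ends of the chromosome 5 genes are shown first, since the peaks stopped short of them. The lines below hold the bases just before the annotated 5′ end of each gene, read 5′ to 3′ along the gene from the RefSeq promoter table (GRCh38.p14), with each CG dinucleotide in capitals. They are the 250 bases of IRX1 at chr5:3595582-3595831 on the plus strand, the 250 bases of IRX2 at chr5:2751678-2751927 on the minus strand and the 193 bases of IRX4 at chr5:1887237-1887429 on the minus strand. IRX3, IRX5 and IRX6 had no entry.
IRX1: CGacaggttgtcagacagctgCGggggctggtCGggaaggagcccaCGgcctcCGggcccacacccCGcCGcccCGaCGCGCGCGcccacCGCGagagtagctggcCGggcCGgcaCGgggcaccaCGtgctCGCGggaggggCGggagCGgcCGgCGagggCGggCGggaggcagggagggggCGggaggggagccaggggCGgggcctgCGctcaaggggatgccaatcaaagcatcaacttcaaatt
IRX2: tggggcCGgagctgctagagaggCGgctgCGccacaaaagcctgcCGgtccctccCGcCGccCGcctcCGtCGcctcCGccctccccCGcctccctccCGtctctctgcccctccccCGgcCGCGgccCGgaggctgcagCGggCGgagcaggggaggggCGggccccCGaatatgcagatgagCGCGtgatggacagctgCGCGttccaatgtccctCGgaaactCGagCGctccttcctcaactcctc
IRX4: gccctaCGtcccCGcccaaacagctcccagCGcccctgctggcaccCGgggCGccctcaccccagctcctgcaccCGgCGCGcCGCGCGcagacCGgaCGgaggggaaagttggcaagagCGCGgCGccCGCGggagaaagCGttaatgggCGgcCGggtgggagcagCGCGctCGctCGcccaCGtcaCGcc
The stretches of IRX1 and IRX2 held 29 and 27 CG dinucleotides and that of IRX4 held 27, against a median of 11 in the 250 bases before the start of 35116 RefSeq promoter entries. At least as many CG as in IRX1 were found in 14.1% of all entries, as many as in IRX2 in 17.7%, and as many as the 40 in the whole 250 bases of the IRX4 entry in 2.16%. No list had a peak on any base of these 3 stretches.

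The chromosome 5 cluster was a broad H3K27me3 territory in all 6 lists, and the chromosome 16 cluster was almost bare. Peaks covered 60.5% and 58.0% of the chromosome 5 window in WT A and B, 50.4% and 56.6% in 231K A and B, and 33.4% and 38.6% in 232P A and B. On chromosome 16 the covered share was 0.773% and 1.60% in WT A and B, 0.808% and 2.43% in 231K, and 0.347% and 2.84% in 232P. The lowest value of chromosome 5 lay far above the highest of chromosome 16. Among 1564 neighbouring segments of the genome as long as the chromosome 5 window, between 98.3% and 99.9% had less cover than this window, depending on the list, and the median segment had 0.261% to 1.31%. The chromosome 16 window stood near the middle, with 53.8% to 62.5% of 2416 segments of its length below it.

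On chromosome 5 the cover was made of many separate peaks rather than a few wide ones. The window held 894 and 671 peaks in WT A and B, 991 and 653 in 231K, and 955 and 721 in 232P, with median widths of 423 to 1051 bp. Peaks within 1 kb of each other were joined to domains. The longest domain measured 59.1 kb in WT A, 35.02 kb in WT B, 39.1 kb in 231K A, 28.9 kb in 231K B, 23.3 kb in 232P A and 31.3 kb in 232P B. It lay between IRX4 and IRX2 in WT A, 232P A and 232P B and between IRX2 and IRX1 in the other 3, and those of WT B and 231K B overlapped. Domains of at least 10 kb numbered 52 and 46 in WT, 34 and 45 in 231K, and 17 and 16 in 232P, so that both 232P lists were below the other 4.

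**Figure D1:**
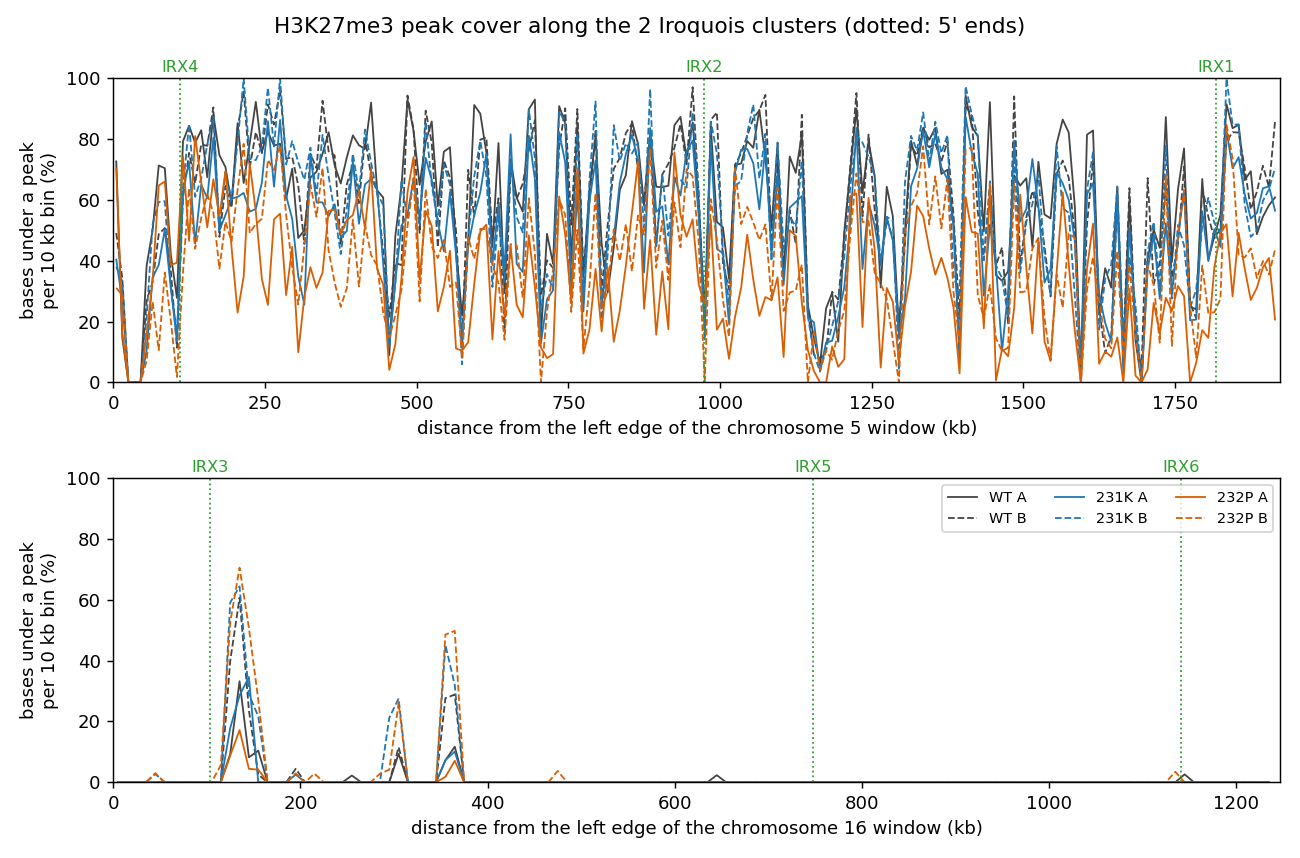
Percent of bases under an H3K27me3 peak in 10 kb bins (y axis) against the distance from the left edge of each window in kb (x axis), with 1 line per sample and dotted lines at the 5′ ends of the 6 genes. The chromosome 5 window has cover along most of its length, with a wide bare stretch at its left and narrower ones farther right, and with both 232P lines mostly below the rest, whereas the chromosome 16 window shows a few islands between IRX3 and IRX5.

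The mark was spread over the gene-poor intervals and the right flank, with less in the left flank. Between IRX4 and IRX2 (859 kb) peaks covered 68.2% and 66.5% in WT A and B, 56.2% and 64.1% in 231K, and 40.3% and 44.8% in 232P. Between IRX2 and IRX1 (844 kb) the values were 55.5% and 52.3% in WT, 46.9% and 51.5% in 231K, and 26.4% and 34.7% in 232P. The 100 kb to the right of IRX1 had 68.0% and 70.4% in WT, 63.2% and 67.3% in 231K, and 35.7% and 47.1% in 232P. In these 3 intervals all Tau-KO lists lay below both WT lists, with 231K B nearest to WT. The 100 kb to the left of IRX4 had 36.0% and 27.9% in WT, 23.2% and 29.5% in 231K, and 30.6% and 16.0% in 232P, where 231K B and 232P A lay above WT B and the groups overlapped.

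The largest gap of the chromosome 5 window lay in its left flank and held its only other protein-coding genes, MRPL36, a mitochondrial ribosomal protein, and NDUFS6, a subunit of respiratory complex I. It measured 40.7 and 40.2 kb in WT A and B, 41.8 and 40.5 kb in 231K, and 41.0 and 44.5 kb in 232P. Its edges lay close together in the 6 lists, and 37.6 kb (chr5:1792997-1830632) had no peak in any list. The mark was thus interrupted over these housekeeping genes in every list. Another 8 stretches of at least 5 kb were empty in all lists, the longest of 10.6 kb, and their GC content was 29.7% to 42.4% against 45.8% for the whole window.

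At base resolution the 6 lists shared less than the cover figures show. Of the chromosome 5 window, 11.8% was under a peak in all 6 lists and 19.2% in none. WT A and WT B shared 76.2% of the bases of WT A and 79.5% of those of WT B, and 231K A and 231K B shared 82.3% and 73.3% of theirs. In contrast, 232P A and 232P B shared 50.2% and 43.4% of theirs, fewer than any other replicate pair. Such a share is limited by the cover of the partner list, which was lowest in 232P A and 232P B (33.4% and 38.6% of the window). It therefore does not by itself show a poorer agreement of these replicates. The same limit holds for the shares of WT bases that follow. Of the bases under a peak in both WT lists, 68.3% were so in both 231K lists and 30.3% in both 232P lists, while 8.48% and 21.0% were in neither list of the line. Bases covered in both WT lists and in no Tau-KO list made up 1.91% of the window, and those in all Tau-KO lists but in no WT list 0.138%. The latter set requires cover in more lists, so the sizes of these sets cannot be compared. Of the bases under a peak in both 231K lists, 3.60% were in neither WT list, and of those in both 232P lists, 2.20%.

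The peaks of the chromosome 5 genes stopped short of their outermost annotated 5′ ends. IRX4 had peaks within 5 kb of a start in all lists, with 40.03% and 30.6% of the 5 kb on each side of its 5′ end covered in WT A and B, 27.2% and 26.96% in 231K, and 46.4% and 2.48% in 232P. For IRX2 the values were 23.9% and 20.3% in WT, 21.1% and 21.2% in 231K, and 25.6% and 5.62% in 232P. For IRX1 they were 45.9% and 36.6% in WT, 34.9% and 39.5% in 231K, and 39.2% and 17.5% in 232P. In all 3 genes 232P B was the lowest list, while 232P A was above the lower WT list, so that Tau-KO and WT overlapped. Within 1 kb of the 5′ end no base of IRX4 or IRX2 was under a peak in any list, and IRX1 had 2.35% in WT A, 1.45% in 232P A, 0.100% in 231K B and 0 in the others. With all annotated starts counted, IRX4 had a peak within 1 kb of another start in 5 lists, so that the bareness described here is that of the outermost 5′ end.

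The stretch around the 5′ end without a peak in any list was 2.53 kb long at IRX4 (chr5:1885964-1888490), 2.53 kb at IRX2 (chr5:2750249-2752775) and 2.38 kb at IRX1 (chr5:3594410-3596785). These stretches had a GC content of 70.4%, 71.5% and 72.0% and held 81.9, 121 and 115 CG dinucleotides per kb. In 232P B they widened to 14.4 kb at IRX4, 10.8 kb at IRX2 and 3.52 kb at IRX1. In the other lists they ranged from 2.56 to 4.18 kb at IRX4, from 2.53 to 6.35 kb at IRX2 and from 2.39 to 2.70 kb at IRX1. A peak within 5 kb of a start in all 6 lists was found in 17.3% of all protein-coding genes, and in all 3 genes of chromosome 5 but in none of chromosome 16. Of the genes with such peaks, 14.4% had at most 5% of the 1 kb on each side of the 5′ end covered in every list, among them IRX4, IRX2 and IRX1. The bare starts were therefore shared with many other marked genes. Whether the high GC content of these stretches lowered their read recovery was not tested.

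**Figure D2:**
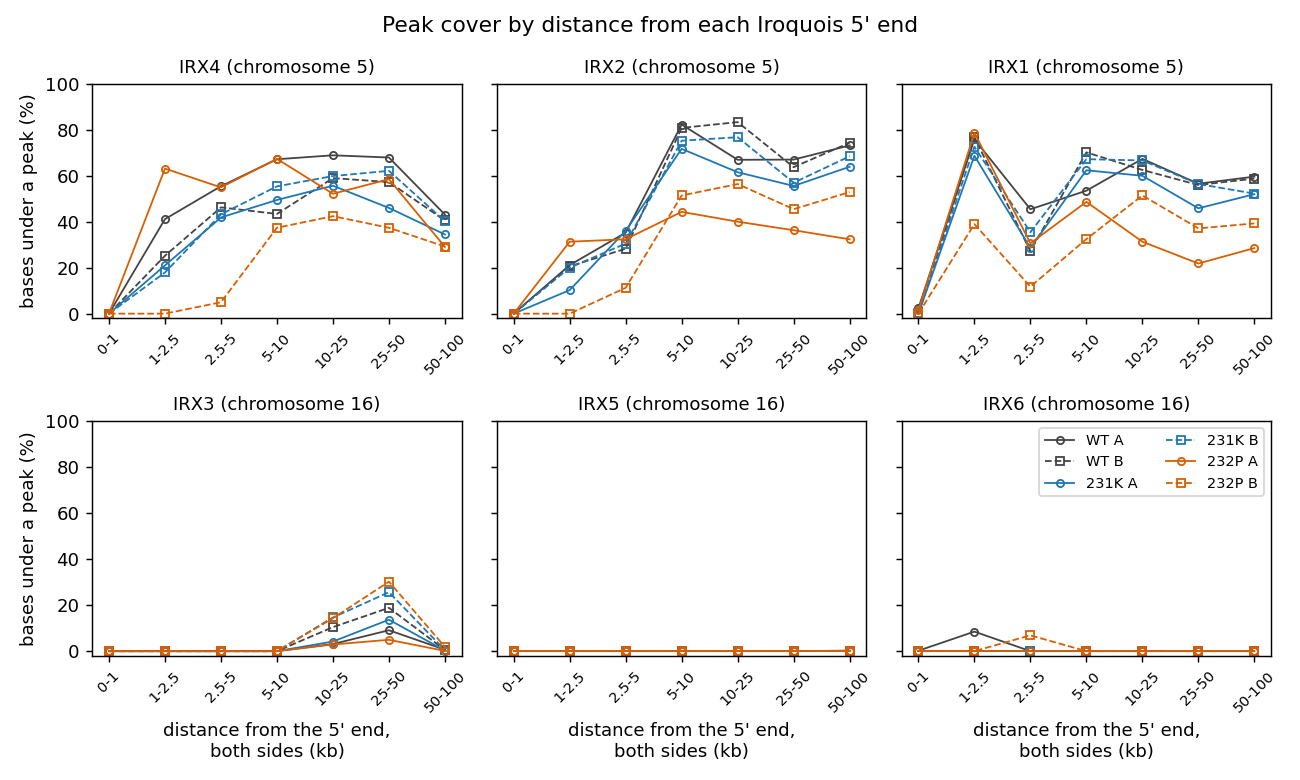
Percent of bases under a peak (y axis) in 7 classes of distance from the 5′ end, both sides pooled, in kb (x axis), with 1 panel per gene and 1 line per sample. IRX4, IRX2 and IRX1 start at or near 0 within 1 kb, IRX1 is highest at 1 to 2.5 kb in 5 of 6 samples and lower at 2.5 to 5 kb, IRX2 and IRX4 rise more slowly, IRX3 stays at 0 up to 10 kb and has some cover at 10 to 50 kb, and IRX5 and IRX6 stay at or near 0.

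Just outside the bare starts the genes differed. Between 1 and 2.5 kb from the 5′ end, IRX1 was covered at 75.8% and 76.7% in WT A and B, 68.6% and 72.6% in 231K, and 78.6% and 38.9% in 232P. In the same class IRX4 had 41.1% and 25.2% in WT, 21.0% and 17.9% in 231K, and 63.1% and 0 in 232P. IRX2 had 21.1% and 20.6% in WT, 10.2% and 20% in 231K, and 31.3% and 0 in 232P, and rose at 5 to 10 kb, with 82.2% and 80.8% in WT, 71.7% and 75.2% in 231K, and 44.3% and 51.4% in 232P. The mark thus came closest to the start at IRX1, and 232P A was the highest list there for each gene while 232P B was the lowest. Farther out, at 25 to 50 kb from IRX1, 232P A was the lowest list with 21.8%, below 37.1% in 232P B and 45.8% to 56.5% in the other 4. It was also the lowest in this class at IRX2 (36.3%, against 45.4% in 232P B). At IRX4 it had 58.5%, and 232P B was the lowest with 37.3%.

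The domains that reached within 5 kb of the outermost 5′ end of a gene were shorter than the longest of the territory. Their extent depended on how peaks were joined. With peaks within 1 kb joined, that of IRX4 measured 41.5 and 7.38 kb in WT A and B, 20.4 and 6.16 kb in 231K, and 13.3 and 4.53 kb in 232P. That of IRX2 measured 15.7 and 6.05 kb in WT, 17.2 and 6.30 kb in 231K, and 7.70 and 6.09 kb in 232P. That of IRX1 measured 7.29 and 2.21 kb in WT, 13.1 and 14.9 kb in 231K, and 4.50 and 1.30 kb in 232P. For IRX4 and IRX2 the A list was longer than the B list in each genotype, and the genotypes overlapped. For IRX1 both 231K lists were longer than the other 4 at this joining distance, but without joining both were shorter than the WT lists (1.49 and 1.73 kb against 1.77 and 2.21 kb). The mean over the 6 lists was 15.5 kb ± 14.0 for IRX4, 9.84 kb ± 5.18 for IRX2 and 7.21 kb ± 5.68 for IRX1 (SD, n = 6), without joining it was 4.58, 1.64 and 1.58 kb, and with peaks within 3 kb joined it was 68.5, 72.3 and 93.4 kb. The order of the 3 genes by mean extent was thus turned round at the widest joining distance.

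Gaps between neighbouring peaks show the same fragmentation. In the chromosome 5 window the median gap was 414 and 599 bp in WT A and B, 459 and 682 bp in 231K, and 603 and 874.5 bp in 232P. Gaps of at most 1 kb made up 81.5% and 68.7% in WT, 76.6% and 64.9% in 231K, and 68.6% and 55.6% in 232P. Under each letter the order was WT, 231K and 232P, from the most to the least contiguous, and within each genotype the B list had larger gaps than the A list. Domains accordingly numbered 166 and 211 in WT, 233 and 230 in 231K, and 301 and 321 in 232P. All Tau-KO lists had more domains than both WT lists.

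Long non-coding genes of the chromosome 5 window shared the territory. Of 19 such genes, 17 had cover within 5 kb of the 5′ end in all 6 lists and none was bare throughout. No share over all long non-coding genes stands beside this count or that of chromosome 16 below. IRX4-AS1, CTD-2194D22.4, IRX2-DT and 2 genes known by identifier alone, ENSG00000289075 and ENSG00000259603, begin within 5 kb of a member. CTD-2194D22.4, which begins 96 bp from IRX4 on the opposite strand, had 41.0% and 31.6% in WT A and B, 28.2% and 27.9% in 231K, and 47.3% and 3.25% in 232P. IRX2-DT, which begins 454 bp from IRX2 on the opposite strand, had 21.4% and 15.7% in WT, 18.1% and 16.7% in 231K, and 25.6% and 1.08% in 232P. Their windows overlap those of IRX4 and IRX2, so that these values are not independent of them.

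On chromosome 16 no peak lay within 5 kb of a start of IRX3 or IRX5 in any list. The stretch without a peak in any list was 65.8 kb around IRX3 (chr16:54232845-54298692) and 488 kb around IRX5 (chr16:54833080-55320701), which also held the start of CRNDE, a long non-coding gene that begins 1676 bp from IRX5. IRX6 had a single weak peak within 5 kb of a start in WT A (fold enrichment 2.38, −log10 q 0.957) and in 232P B (2.41 and 1.09), and none in the other 4 lists. MMP2, a matrix metalloprotease whose start lies in the right flank, had none. Of 20 long non-coding genes in this window, none was covered near its start in all lists and 17 in no list. Those that begin within 5 kb of a member were ENSG00000283689 and ENSG00000277559 at IRX3 and CRNDE, ENSG00000289307 and ENSG00000259711 at IRX5, all bare, and ENSG00000283423 at IRX6, with 2.59% in WT A, 3.44% in 232P B and 0 in the other 4 lists. The start regions of IRX3, IRX5 and CRNDE were thus as bare as those of MRPL36 and NDUFS6.

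With neighbouring peaks within 5 kb joined, the few chromosome 16 peaks formed 10 islands, 8 of them between IRX3 and IRX5, and only 2 had a peak in all 6 lists. The first, chr16:54298693-54339508, lay 11.9 to 52.7 kb upstream of the IRX3 5′ end and contained no annotated gene. Peaks covered 14.96% and 31.03% of its 40.8 kb in WT A and B, 19.8% and 42.6% in 231K, and 8.44% and 50.6% in 232P. The second, chr16:54536434-54549221, lay 250 to 262 kb upstream of IRX3 and reached into the body of a long non-coding gene. It was covered at 14.8% and 44.2% in WT, 13.6% and 60.3% in 231K, and 6.90% and 76.9% in 232P. In both islands each B list was above every A list, whatever the genotype. A further island of 19.1 kb, chr16:54470756-54489875, lay 184 to 203 kb upstream of IRX3 and had peaks in 4 lists, covering 4.89% in WT A, 6.03% in WT B, 25.5% in 231K B and 17.2% in 232P B. The remaining 7 islands had a peak in 3 lists or fewer, and no chromosome 16 domain reached 10 kb in any list. A peak with −log10 q of at least 5 was found on chromosome 16 in the B lists alone, with 3 in WT B, 6 in 231K B and 4 in 232P B.

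The summits of some of the strongest peaks are shown to set their sequence beside that of the bare starts. The lines below give 200 bases of the plus strand of hg38 around 4 summits, again with CG in capitals. The strongest chromosome 5 peak of any list was in 231K B (fold enrichment 11.3, −log10 q 19.98), at chr5:1936556-1936755 in the body of a long non-coding gene 49.4 kb from the IRX4 5′ end, and all 6 lists had a peak on this summit. The strongest peak of WT A (9.93 and 16.2) was at chr5:3614118-3614317, 18.4 kb from the IRX1 5′ end, where 3 lists had a peak. The strongest peak of 232P A (9.94 and 13.1) was at chr5:3593255-3593454, 2.48 kb upstream of IRX1, where 5 lists had a peak. The strongest chromosome 16 peak was in 231K B (7.92 and 11.5), at chr16:54320231-54320430 in the first island, 33.5 kb upstream of IRX3, and 5 lists had a peak there.
near IRX4: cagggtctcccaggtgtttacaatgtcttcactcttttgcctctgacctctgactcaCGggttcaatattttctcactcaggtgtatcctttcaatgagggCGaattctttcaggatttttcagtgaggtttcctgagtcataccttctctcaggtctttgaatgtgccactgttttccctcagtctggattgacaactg
near IRX1, WT A: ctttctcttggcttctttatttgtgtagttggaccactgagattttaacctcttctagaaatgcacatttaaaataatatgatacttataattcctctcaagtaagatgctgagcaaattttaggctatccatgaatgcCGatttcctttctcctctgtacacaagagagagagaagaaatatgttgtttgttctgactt
near IRX1, 232P A: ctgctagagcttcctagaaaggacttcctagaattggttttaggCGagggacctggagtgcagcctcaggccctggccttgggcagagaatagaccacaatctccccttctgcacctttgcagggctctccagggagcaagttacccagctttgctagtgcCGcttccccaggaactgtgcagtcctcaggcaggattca
near IRX3: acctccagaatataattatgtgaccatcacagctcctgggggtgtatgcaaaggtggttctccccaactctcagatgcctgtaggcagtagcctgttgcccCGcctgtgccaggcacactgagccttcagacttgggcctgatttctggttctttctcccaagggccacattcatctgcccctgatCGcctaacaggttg
In the order printed, the stretches held 2, 1, 2 and 2 CG dinucleotides and had a GC content of 45%, 34.5%, 56% and 54%, against 27 or more CG in the bare starts printed above. The strongest peak of WT B on chromosome 16 (summit 54320070) and that of 232P B (summit 54319566) lay in the same island within 1 kb of that of 231K B (summit 54320331).

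Peaks of the chromosome 5 window were also stronger than those of chromosome 16. The fold enrichment at the summit, a linear ratio over the background of the same library, had a median of 4.37 and 4.62 in WT A and B, 4.45 and 4.58 in 231K, and 4.47 and 4.30 in 232P. On chromosome 16 it was 3.14 and 3.51 in WT, 2.89 and 4.09 in 231K, and 3.86 and 3.52 in 232P. The median of chromosome 5 was the higher in every list. Its highest fold enrichment was 9.93 and 10.1 in WT, 9.43 and 11.3 in 231K, and 9.94 and 7.94 in 232P, against 4.76 and 7.15, 4.92 and 7.92, and 4.97 and 6.62 on chromosome 16. The median −log10 q of chromosome 5 was 3.86 and 4.45 in WT, 4.05 and 5.21 in 231K, and 3.06 and 3.69 in 232P, which placed it at the 74.7 to 80.1 percentile of all peaks of the list. The corresponding percentile of chromosome 16 was 24.1 to 57.6. The median fold enrichment of the chromosome 5 peaks thus lay between 4.30 and 4.62 in all genotypes, while that of q, which also depends on depth, was lowest in both 232P lists.

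**Figure D3:**
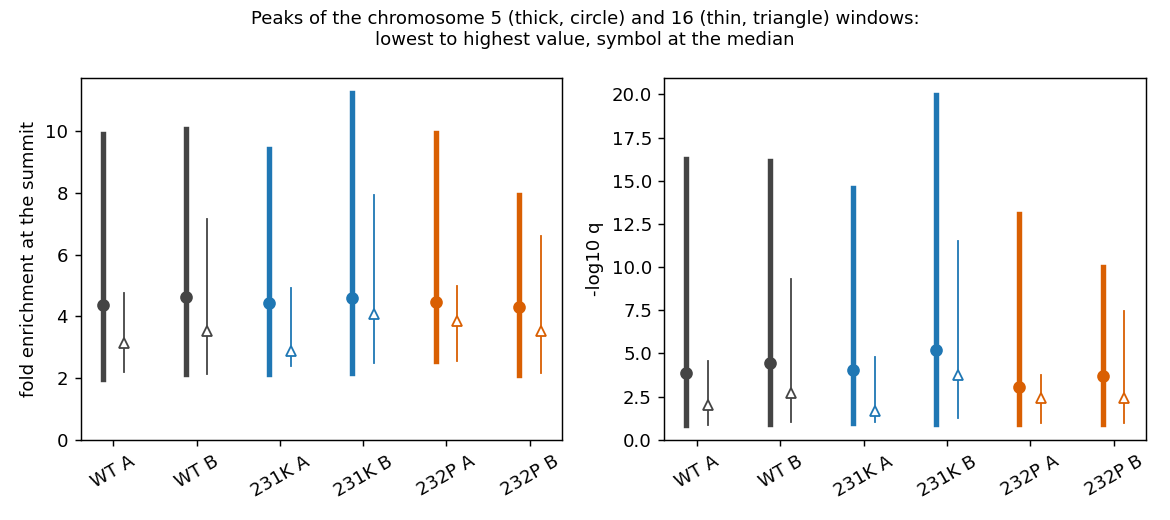
Fold enrichment at the summit (left, linear ratio) and −log10 q (right) of all peaks in the windows of chromosome 5 (thick bars, circles) and chromosome 16 (thin bars, triangles), for each of the 6 samples on the x axis. Bars run from the lowest to the highest peak and symbols mark the median, which is higher on chromosome 5 in every sample.

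The comparison of the 2 Tau-KO lines with WT asks how H3K27me3 differs in cells without Tau. On the chromosome 5 cluster both lines had a lower mean cover than WT, and both 232P lists were below both 231K lists, a difference between lines that an exact test of 2 lists against 2 cannot bring below 0.05. The covered share was 59.3% ± 1.77 in WT, 53.5% ± 4.37 in 231K and 36.0% ± 3.71 in 232P (mean ± SD, n = 2 each). All 4 Tau-KO lists lay below both WT lists, and the Tau-KO mean was 14.6 percentage points lower than that of WT. A two-sided exact permutation test of 2 WT against 4 Tau-KO lists gave p = 0.133, where the smallest p this design allows is 0.0667. The difference was −18.7 points among the A lists and −10.4 points among the B lists. Among segments of the same length across the genome, 5.31% had all 4 Tau-KO lists below both WT lists. The separation was not kept with only peaks of −log10 q of at least 5. There 231K B covered 42.8%, above WT A (40.9%) and WT B (42.1%), and exact permutation gave p = 0.267 (two-sided).

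**Figure D4:**
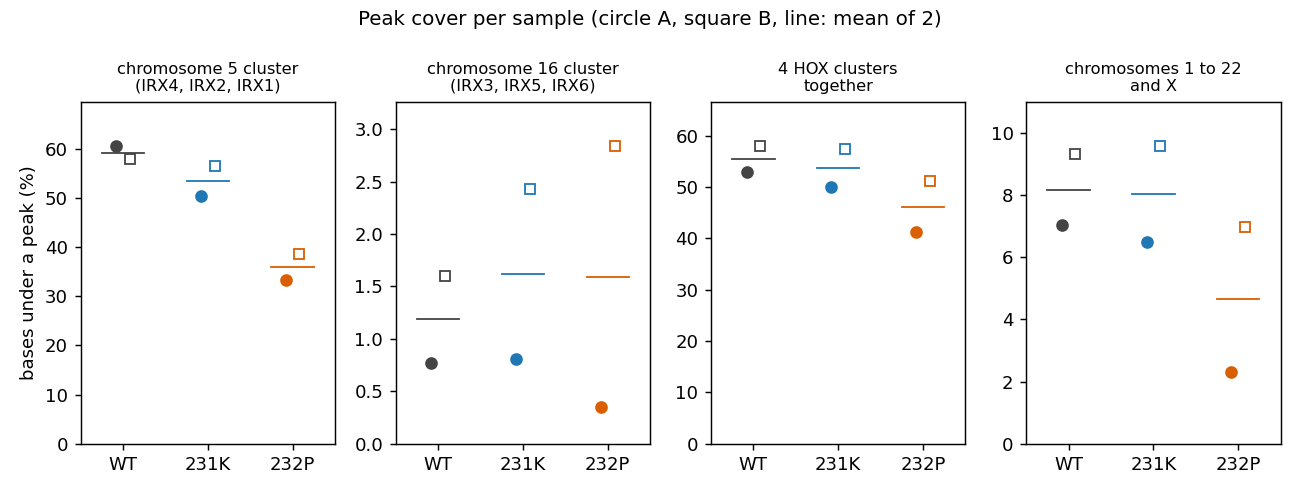
Percent of bases under a peak (y axis, each panel from 0) in the chromosome 5 window, the chromosome 16 window, the 4 HOX clusters and chromosomes 1 to 22 and X, by genotype (x axis), with circles for replicate A, squares for replicate B and a line at the mean of 2. In the chromosome 5 panel both 232P points (33.4% and 38.6%) lie below all others, and in the other panels the B point is above the A point in each genotype.

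The lower cover of 232P was not confined to the Iroquois genes. Over chromosomes 1 to 22 and X, the A lists covered 7.05% (WT), 6.49% (231K) and 2.32% (232P), and the B lists 9.32%, 9.57% and 6.99%, with 232P the lowest under each letter. The chromosome 5 cover divided by this share came to 8.59 in WT A, 6.22 in WT B, 7.77 in 231K A, 5.91 in 231K B, 14.4 in 232P A and 5.53 in 232P B, so that the order of the genotypes was lost and 232P A became the highest (exact permutation p = 0.933, two-sided). Segments of the length of the chromosome 5 window were also taken where the mean WT cover was at least 20%, 265 in all. Their ratio of 232P to WT had a median of 0.574, and the Iroquois window stood at 0.607. For 231K the median ratio was 0.994 and the Iroquois window stood at 0.902. Since WT cover both chose these segments and divides the ratio, their ratios are no neutral reference. The wider lowering in 232P is given by the shares over chromosomes 1 to 22 and X alone.

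The HOX clusters, homeobox genes that are textbook PRC2 targets, served as a second yardstick. Together they were covered at 53.0% and 57.9% in WT A and B, 50.0% and 57.3% in 231K, and 41.1% and 51.2% in 232P. This pools unlike clusters, from HOXD with 2.10% to 5.01% over the lists to HOXB with 74.3% to 91.9%. The cover of the chromosome 5 Iroquois window relative to theirs was 1.14 and 1.00 in WT, 1.01 and 0.987 in 231K, and 0.811 and 0.754 in 232P. Both 232P lists were below the other 4 on this scale, which was chosen after the data were seen, and the exact permutation test of Tau-KO against WT gave p = 0.200 (two-sided). The lists of like depth, WT B, 231K B and 232P A, had 58.0%, 56.6% and 33.4% of the window covered, but 232P A also differed from the other 2 in smallest peak width and in the GC content of its covered bases, so that the part of depth was not tested.

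Base composition moved with these differences. In 1 kb bins of the chromosome 5 window with a GC content under 40%, peaks covered 39.3% and 49.5% in WT A and B, 37.7% and 51.5% in 231K, and 11.3% and 36.9% in 232P. At 45 to 50% GC the values were 73.5% and 69.0% in WT, 63.4% and 65.9% in 231K, and 39.5% and 44.9% in 232P. At 55 to 60% GC they were 58.5% and 36.4% in WT, 33.0% and 30.98% in 231K, and 53.0% and 14.9% in 232P. Both 232P lists were thus below the other 4 in every class under 55% GC, with 232P A the lower of the 2 under 50% GC. From 55% GC they parted, with 232P A near or above WT A and 232P B the lowest, as at the gene starts. Covered bases had a GC content of 49.7% in 232P A and 43.8% in 232P B, outside the 44.6% to 46.6% of the other 4. In bins of 45 to 50% GC all Tau-KO lists remained below both WT lists, with a mean difference of −17.9 points (exact permutation p = 0.133, two-sided). In bins of 55% GC or more the difference was −11.4 points (exact permutation p = 0.333, two-sided), with 232P A at 47.5% above WT B at 29.3%. In both classes under 45% GC, 231K B was above both WT lists. These classes were chosen after the data were seen. The part of GC content in the difference between genotypes was not tested further.

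**Figure D5:**
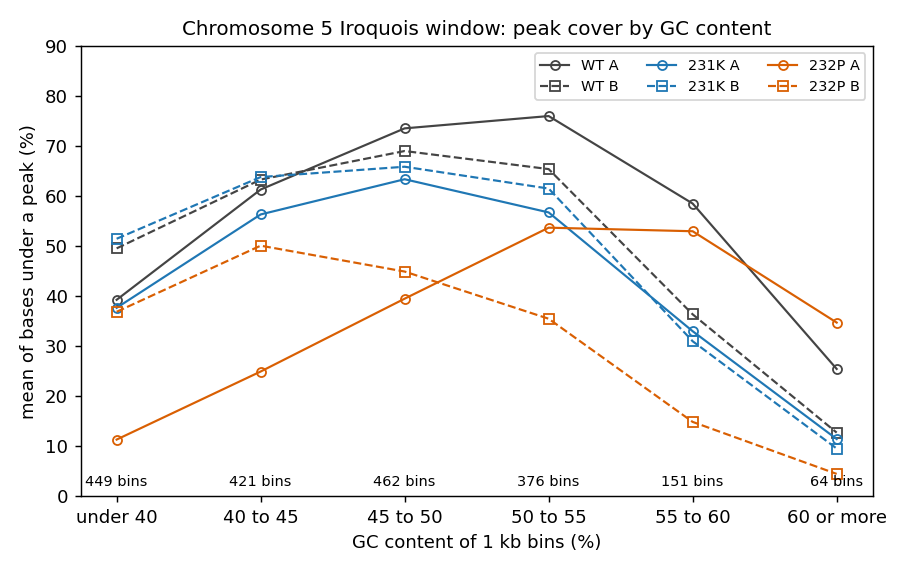
Mean percent of bases under a peak (y axis) in 1 kb bins of the chromosome 5 window, grouped by GC content (x axis, with the number of bins), with 1 line per sample. 232P A rises from 11.3% in bins under 40% GC to 53.7% at 50 to 55% GC, whereas 232P B falls from 50.1% at 40 to 45% GC to 4.46% at 60% or more.

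On chromosome 16 the covered share was 1.18% ± 0.582 in WT, 1.62% ± 1.14 in 231K and 1.59% ± 1.76 in 232P (mean ± SD, n = 2 each). The groups overlapped, and the Tau-KO mean was 0.419 points above that of WT (exact permutation p = 0.667, two-sided). The difference was −0.196 points among the A lists and 1.03 points among the B lists, so that it had no common direction. Without WT A it was 0.00780 points and without 232P B 0.00870 points.

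Next, each line was compared with WT at gene starts with limma over all genes, on the log2 of the highest fold enrichment within 5 kb of a start, for the 3459 genes with such a peak in all lists. The median gene of each list was set to 0, since without this step the median gene moved by 0.07 in 231K and −0.16 in 232P on the log2 scale. No gene passed an adjusted p of 0.05, that is 0% for 231K and 0% for 232P, and 147 and 155 genes had an unadjusted p below it. The fold enrichment of IRX1 was 7.94 and 6.73 in WT A and B, 9.43 and 7.09 in 231K, and 9.94 and 4.86 in 232P. That of IRX2 was 5.96 and 7.15 in WT, 6.15 and 9.17 in 231K, and 7.46 and 2.44 in 232P. That of IRX4 was 7.37 and 8.03 in WT, 7.79 and 8.34 in 231K, and 7.46 and 3.97 in 232P. In all 3 genes both 231K lists were above the lower WT list and 232P B was the lowest list.

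In 231K the log2 difference from WT was 0.10 (SE 0.31) for IRX1, 0.14 (SE 0.36) for IRX2 and 0.00 (SE 0.26) for IRX4. In 232P it was 0.10 (SE 0.31) for IRX1, −0.44 (SE 0.36) for IRX2 and −0.33 (SE 0.26) for IRX4. None reached 2 standard errors, and the adjusted p was 0.9997 for each gene in 231K and 0.9988 in 232P. Without 232P B the difference of IRX2 in 232P became 0.42 and that of IRX4 0.18, without 232P A they became −1.29 (limma adjusted p = 0.123) and −0.83 (0.442), and without centring that of IRX1 became −0.07, so that no direction can be given for 232P at these starts. Between the lines, limma called no gene with all lists (0%; 174 at an unadjusted p below 0.05). Without 232P A it called IRX2 alone of 3869 genes (0.0258%), with a log2 difference of −1.47 between 232P B and 231K (adjusted p = 0.0482), a comparison added after the data were seen in which 232P B is assumed to vary like the other lists. The difference of IRX2 between the lines was −0.58 with all lists and 0.28 without 232P B, so that its sign rests on 232P B.

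The covered share of the 5 kb on each side of the 5′ end was compared in the same way for 4627 genes with cover in at least 2 lists. Again no gene passed an adjusted p of 0.05 in limma (0% in 231K and 0% in 232P), with 49 genes at an unadjusted p below it in 231K and 665 in 232P, all 665 lower. In 231K the difference was −4.06 points (SE 8.84) for IRX1, −0.96 (SE 7.79) for IRX2 and −8.26 (SE 15.2) for IRX4, each with an adjusted p of 0.9998. In 232P limma gave −12.9 points for IRX1 (adjusted p = 0.501), −6.52 for IRX2 (0.665) and −10.9 for IRX4 (0.710), with the same standard errors, and the median gene tested differed by −12.5 points. Without 232P B these became −2.07, 3.44 and 11.03 points, and with each list centred to its mean 1.08, 7.45 and 3.06 points, so that no direction can be given for 232P relative to other genes. IRX6, the only chromosome 16 member with any cover here, differed by −1.29 points in 231K and 0.425 in 232P (SE 4.38). All 4 Tau-KO lists were below both WT lists in 10.4% of the genes tested but in none of these 4 members.

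The Iroquois starts can be set beside other gene lists. Of 12 related TALE homeobox genes (the MEIS, PBX, PKNOX and TGIF genes and MKX), only MKX, a tendon factor, had a peak within 5 kb of a start in all lists, and 10 had none in any list. MKX was covered at 52.4% and 48.2% in WT A and B, 44.2% and 48.1% in 231K, and 41.6% and 35.1% in 232P. Of 39 HOX genes, 30 had a peak in all lists and 8 in none, against 17.3% of all protein-coding genes in all lists and 72.1% in none. PHOX2A, HAND2, GATA3, ISL1, TH and DBH, genes of the adrenergic neuroblastoma identity that SH-SY5Y is known to use, had no peak within 5 kb of a start in any list. Of 9 regulators or markers of other lineages, 8 had a peak in all lists and GATA4, a heart and endoderm factor, had none. IRX4, IRX2 and IRX1 thus had peaks within 5 kb, like most of the other-lineage genes, and IRX3 and IRX5 had none, like these adrenergic genes, a likeness that was not tested. Within 1 kb of a start, 11.4% of all protein-coding genes had a peak in all lists. So did 6 of the 9 other-lineage genes and 27 of the 39 HOX genes. None of the 3 chromosome 5 members did, with such a peak at IRX4 in 5 lists, at IRX1 in 3 and at IRX2 in none. Beside the share of all genes, 3 members are too few to show a difference.

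The protein-coding genes outside the windows whose centred log2 fold enrichment over the 6 samples was closest to the mean of IRX1, IRX2 and IRX4 were SIGLEC16, a receptor of immune cells, KLK11, a secreted protease, WNT1, a signalling ligand, GOLGA6L2, and PLA2G7, a lipase of the blood plasma. Their Euclidean distances were 0.400, 0.549, 0.551, 0.562 and 0.564, against a median of 1.35 over 3456 genes. IRX4 itself stood at 0.253, IRX1 at 0.657 and IRX2 at 0.726 from that mean, so that IRX1 and IRX2 lay farther from it than these 5 genes. SIGLEC16 had fold enrichments of 6.35 and 6.73 in WT A and B, 6.14 and 8.12 in 231K, and 7.95 and 3.97 in 232P. It was picked for its closeness to the Iroquois mean, so that 232P B as its lowest list is no separate result. The likeness is over 6 samples and describes a shared pattern of values.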

How the data were processed

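Peak lists of 6 H3K27me3 ChIP-seq libraries were analysed, and the 6 input libraries were not analysed here. According to the study's methods, reads were trimmed with Trimmomatic, aligned to hg38 with BWA and passed to MACS2, and peaks were listed per sample. The methods name the broad setting, whereas the deposited columns are those of narrow peaks. The minimum q, fragment length, duplicate handling and use of the input are not given in the sources used here. As deposited by the authors, fold enrichment is a ratio, the summit height plus 1 over the local background plus 1. The deposited −log10 p and −log10 q are MACS2 values, and the deposited score is the whole part of 10 times −log10 q. No read counts are held, so heights were worked back from fold and p. MACS2 values compare 1 library with its background and are not scaled between samples.

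Genes came from GENCODE release 44 and promoter sequences from RefSeq (GRCh38.p14), where 3 of 6 members matched. Members, lists and tests were chosen with earlier results of these data known. Named were the members, other protein-coding genes of the windows, long non-coding genes within 5 kb of a member's start, the TALE, HOX and marker lists, and the 5 nearest patterns, and 1 gene of the marker lists is not reported here. Cover is the percent of bases under a peak. Cluster cover was tested by exact permutation over samples (Python 3.11.15, scipy 1.17.1). Gene values were fitted over all protein-coding genes of chromosomes 1 to 22 and X with limma 3.58.1 (R 4.3.3), all 3 genotypes in 1 fit with Benjamini-Hochberg adjustment, and both lines share the WT lists. The log2 fold fit used genes with a peak in all 6 lists, each sample centred to its median, and the cover fit genes with cover in at least 2 lists, uncentred. Both procedures were also run on simulated data, and no result given here rests on those runs. Alternatives were peaks with −log10 q of at least 5, equal peak numbers, joined peaks, other windows and filters, other scalings, recovered heights, leaving out each list, and the letter as a block. Scaling by the HOX clusters and by GC class was added after the data were seen.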

Additional observations from a re-analysis of the deposited data

How the results depend on the processing

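Of 30 alternative values of cluster cover, 29 kept their direction. None could pass 0.05, since the smallest p is 0.0667 without a block. On chromosome 5 the exception was the cover divided by the covered percent of the genome, where the Tau-KO minus WT difference was 0.989 (exact permutation p = 0.933). Leaving out each list gave −18.5 to −10.8 points on chromosome 5 and 0.00780 to 0.838 on chromosome 16. With the replicate letter as a replicate block, exact permutation gave p = 0.222 on chromosome 5 (−14.6 points) and 0.444 on chromosome 16 (0.419 points), where 0.111 is the smallest p. The letters pair nothing in the labels. Deviations of lists with the same letter correlated at 0.082, 0.112 and 0.063 for fold enrichment and at 0.403, 0.504 and 0.446 for cover. The block moved the number of genes at an unadjusted p under 0.05 from 665 to 1573 for cover in 232P, and no gene passed the adjusted threshold in limma.

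Calls appeared in 5 of 60 alternative counts, with 0 to 2 genes for fold enrichment in 231K on leaving out a list (2 without 232P A), 0 to 1 for 232P against 231K (IRX2, without 232P A), 3 in 232P with −log10 q of at least 5, and 5 (231K) and 2 (232P) for cover over all protein-coding genes, where most variances were 0. Of 172 member values 28 changed sign. On the log2 fold scale these were IRX4 in 231K from recovered heights (−0.16) and IRX1 in 232P uncentred (−0.073). For cover with −log10 q of at least 5, IRX2 and IRX4 in 231K gave 1.98 and 3.95 points and IRX4 in 232P 3.06, and centring put IRX1, IRX2 and IRX4 in 232P at 1.08, 7.45 and 3.06. Leaving out a list, the log2 differences in 231K ran from −0.22 to 0.41 (IRX1), −0.041 to 0.32 (IRX2) and −0.056 to 0.062 (IRX4), and in 232P from −0.47 to 0.67, −1.29 to 0.42 and −0.83 to 0.18. For 232P against 231K they ran from −0.60 to 0.58, −1.47 to 0.28 and −0.87 to 0.18, with the highest values without 232P B. Cover differences ran in 231K from −8.73 to 0.600 points (IRX1) and −2.78 to 0.865 (IRX2), and in 232P from −23.7 to −2.07 (IRX1), −16.5 to 3.44 (IRX2), −32.9 to 11.03 (IRX4) and −0.870 to 2.14 (IRX6). The causes were not tested. The lists hold peaks alone, so bases without a peak have no value, and relative depth differed between lists.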
